A study of Rattus norvegicus with 12 samples.

Results

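The RNA of 10 genes of fatty acid oxidation and mitochondrial uncoupling was followed across 4 groups of neonatal rat ventricular myocytes (NRVMs), beating heart muscle cells cultured from newborn Sprague-Dawley rats. The genes were chosen by symbol, as Ucp2, Ucp3, Cpt1a, Cpt1b, Acadm, Acadl, Acadvl, Hadha, Hadhb and Pdk4, which is 10 of the 18483 genes in the deposited tables, and all 10 passed the filter on low counts. RNA-seq covered 12 samples, 3 biological replicates each of siNeg, siNeg PE, siSlc39a2 and siSlc39a2 PE. siNeg is the negative control siRNA and siSlc39a2 is an siRNA against Slc39a2, a zinc transporter of the SLC39 family. The paper lists a single siRNA for Slc39a2. Effects of this siRNA other than through Slc39a2 cannot be told apart here from those of the knockdown. All cells were transfected, and the PE groups then received phenylephrine, an α1-adrenergic agonist that makes cardiomyocytes grow, for 36 h from 12 h after transfection according to the sample labels. The siRNA was transfected into the whole culture, other cell types included. The question was how the knockdown and PE, alone and together, changed the RNA of these genes.

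Adult cardiomyocytes draw most of their energy from long-chain fatty acids. The cells here came from newborn rats, and their fuel use was not measured here. Carnitine palmitoyltransferase 1 (CPT1), at the outer mitochondrial membrane, commits fatty acids to oxidation and is inhibited by malonyl-CoA. Inside the mitochondrion, acyl-CoA dehydrogenases of different chain length preferences open each round of beta-oxidation, and the trifunctional protein completes it for long chains. Pyruvate dehydrogenase kinase 4 (PDK4) switches off the competing entry of glucose carbon, and uncoupling proteins are carriers of the inner membrane. Many of these genes are targets of the fatty acid receptor PPARα. A fall of this programme is a well known feature of hypertrophied heart muscle.

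PE lowered 8 of the 10 genes in siNeg cells at an adjusted p below 0.05 (edgeR, over all genes), where 25.7% of the 13967 genes tested were lower and 24.0% higher. The knockdown lowered 9, against 26.4% of genes lower and 22.8% higher. In the presence of PE the knockdown lowered all 10, against 28.1% lower and 29.2% higher. In siSlc39a2 cells PE lowered 8, against 29.3% lower and 30.7% higher. None of the 10 was called higher in these 4 comparisons. Ucp3 was the only one to change by more than 2-fold within any of these 4 comparisons. In the cells with both interventions Ucp3 was at 1.6% of its siNeg mean. Cpt1b, Cpt1a, Hadhb, Acadvl and Hadha were there at 32.2% to 49.9% of theirs, a difference from siNeg that was not tested. Together the 10 genes took between 0.721% and 0.77% of all counts in the siNeg samples and between 0.359% and 0.405% in the siSlc39a2 PE samples. The siNeg PE samples, at 0.509% to 0.584%, and the siSlc39a2 samples, at 0.538% to 0.587%, lay between them and overlapped each other.

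Total expected counts were between 24065539 and 28603854 per sample. Without PE, Slc39a2 itself was counted 50, 50 and 59 times in siNeg against 21, 11 and 2 times in siSlc39a2. With PE the counts were 95, 198 and 182 against 31, 25 and 38, so the target was lower in every knockdown sample than in every control sample of the same treatment. Cardiomyocyte markers (9 genes, summed) were between 22594 and 35370 FPKM in the 12 samples, FPKM being the authors' fragment counts per gene length and library size, and none was at 0. Of these 9 markers 5 were lower and 0 higher with the knockdown (median log2 fold change -0.34), 4 were lower and 1 higher with the knockdown in the presence of PE (median -0.22), and 3 were lower and 2 higher with PE in siNeg cells (median 0.14). Fibroblast markers (9 genes, summed) were between 2524 and 3441 FPKM in siNeg and 1813 and 2366 in siNeg PE cells. They were between 1117 and 1222 in siSlc39a2, and 744 and 1044 in siSlc39a2 PE. With the knockdown 7 of the 9 were lower and 1 was higher, both with and without PE. Collagens weighed most in the sums, with Col1a1 at 1779 FPKM of a mean sum of 3092 in siNeg. Tcf21 went the other way, from 22.7 FPKM in siNeg to 31.8 in siSlc39a2, and from 15.2 in siNeg PE to 21.8 in siSlc39a2 PE. The 5 smooth muscle markers all fell with the knockdown in untreated cells, from between 1632 and 1712 FPKM to between 731 and 747. Under PE 1 of the 5 was higher with the knockdown and 1 was lower. Their sums were 987 to 1285 FPKM in siNeg PE and 1045 to 1140 in siSlc39a2 PE. The 9 macrophage markers summed to between 67.5 and 97.3 FPKM in siNeg and between 26.2 and 48.7 in the other groups. The 7 endothelial markers stayed at or below 4.72 FPKM, and the 2 adipocyte genes measured stayed at or below 0.09. The part of these shifts in the changes of the 10 genes was not tested, and in bulk RNA fewer cells of a type and less RNA per cell cannot be told apart.

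**Figure D1:**
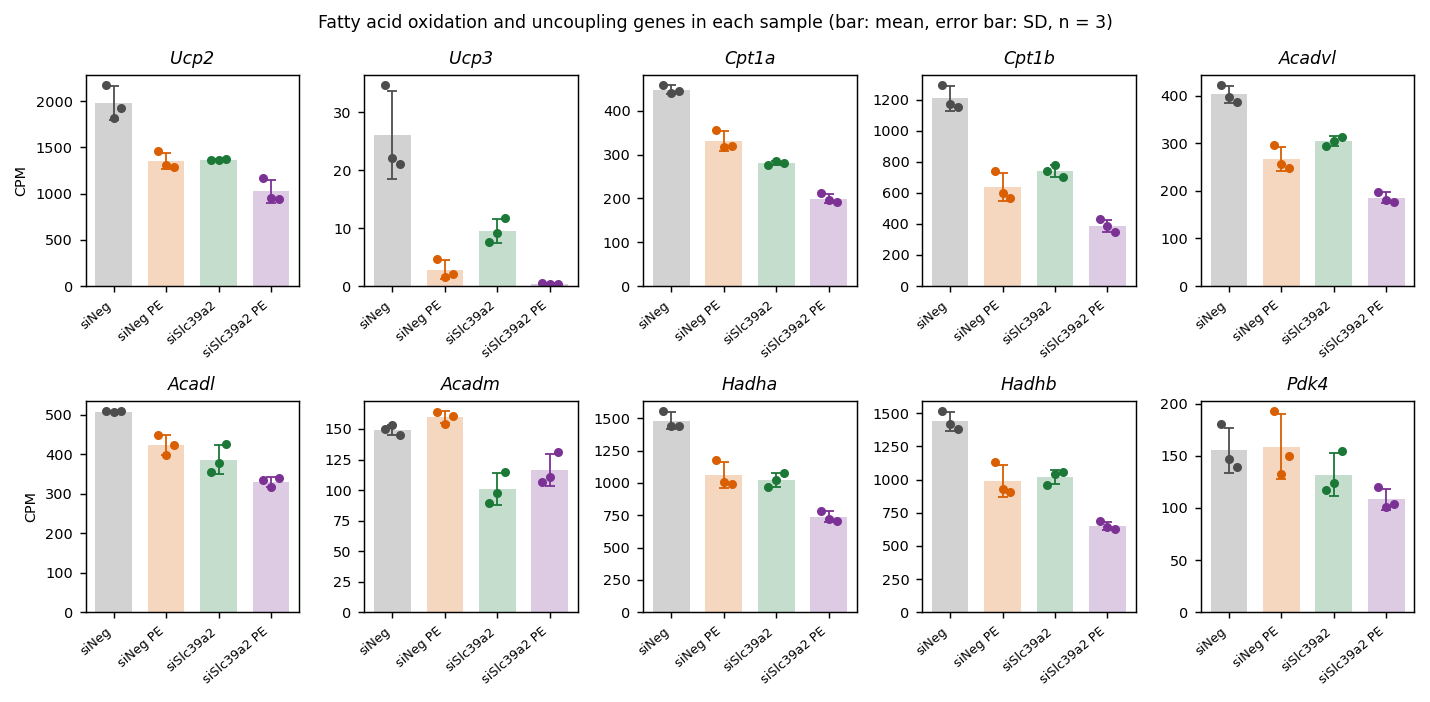
CPM, counts scaled to the TMM-normalized library size (vertical axes, each from 0), of the 10 genes in the 4 groups, with 1 point per sample, bars at the mean and error bars of 1 SD (n = 3). Ucp3 has the steepest steps, from a siNeg mean of 26 CPM to 0.423 CPM in siSlc39a2 PE, whereas Acadm and Pdk4 have siNeg PE bars level with siNeg.

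The uncoupling proteins differed most. Ucp2, which is found in many tissues, and Ucp3, which is found mainly in skeletal and heart muscle, are neighbours on rat chromosome 1, with start sites 23463 bases apart and 0 other genes annotated between them. The 250 bases before each start site are shown because the pair, though adjacent, responded so unequally (RefSeq, build GRCr8, plus strand, chr1:164227660-164227909 for Ucp3 and chr1:164251123-164251372 for Ucp2). Capitals mark AGGTCA, the core sequence read by PPARs and other nuclear receptors.
Ucp3: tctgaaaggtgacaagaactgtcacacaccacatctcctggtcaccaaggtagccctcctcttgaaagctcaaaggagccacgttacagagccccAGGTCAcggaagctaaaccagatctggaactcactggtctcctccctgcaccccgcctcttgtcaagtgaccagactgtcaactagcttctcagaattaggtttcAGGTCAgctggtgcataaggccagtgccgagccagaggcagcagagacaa
Ucp2: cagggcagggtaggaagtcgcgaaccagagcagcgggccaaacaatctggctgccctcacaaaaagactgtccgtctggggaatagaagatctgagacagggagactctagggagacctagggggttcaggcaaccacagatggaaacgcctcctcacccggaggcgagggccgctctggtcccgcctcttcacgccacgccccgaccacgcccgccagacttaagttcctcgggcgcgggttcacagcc
The Ucp3 stretch holds 2 matches, which begin 155 and 50 bases before the start, and the Ucp2 stretch holds 0. AGGTCA on either strand occurs in 16.2% of 33469 promoter windows of 300 bases (250 before and 50 after the start). A match is a description of the letters only. The window build is not that of the count tables, and genes were matched by gene ID.

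Ucp3 (NCBI gene 25708) was the lowest of the 10 genes in every group. Its levels were 34.8, 22.2 and 21.1 CPM in the siNeg samples, 4.68, 1.58 and 2.16 in siNeg PE cells, 7.67, 9.11 and 11.7 in siSlc39a2, and 0.559, 0.31 and 0.4 in siSlc39a2 PE. The 4 groups did not overlap, in the order siNeg, siSlc39a2, siNeg PE and siSlc39a2 PE. The lowest group rested on 15, 9 and 11 counts. On the log2 scale the fold change was -3.21 (SE 0.33, adjusted p = 1.18e-05) with PE in siNeg cells and -1.46 (SE 0.29, adjusted p = 0.00121) with the knockdown in untreated cells. In the presence of PE the knockdown changed Ucp3 by -2.72 (SE 0.47, adjusted p = 0.000356), and in siSlc39a2 cells PE changed it by -4.48 (SE 0.43, adjusted p = 3.76e-06). Both of the last values shrank in limma on log2(FPKM + 1), to -0.85 and -2.12, where the added 1 exceeds the FPKM of Ucp3 in siSlc39a2 PE, and both were still called.

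Ucp2 (NCBI gene 54315) was the most abundant of the 10 per length, at 1229 ± 89.8 FPKM (SD, n = 3) in siNeg. It was at 2178, 1822 and 1929 CPM in siNeg, 1457, 1312 and 1292 in siNeg PE cells, 1362, 1361 and 1369 in siSlc39a2, and 1169, 957 and 942 in siSlc39a2 PE. All siNeg samples lay above all others, all siSlc39a2 PE samples lay below, and siNeg PE and siSlc39a2 overlapped. The log2 fold change was -0.55 (SE 0.09, adjusted p = 0.000425) with PE and -0.53 (adjusted p = 0.000346) with the knockdown. In the presence of PE the knockdown changed it by -0.40 (adjusted p = 0.00205), and PE in siSlc39a2 cells by -0.42 (adjusted p = 0.00169). With limma on the FPKM values the first 3 of these were smaller by more than 1.5 times, at -0.30, -0.18 and -0.21, and still called. Part of the Ucp2 counts is shared with other genes, so its values are uncertain.

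The ratio of Ucp2 to Ucp3, in FPKM, was 118 ± 22.3 in siNeg, 874 ± 393 in siNeg PE cells, 223 ± 45.7 in siSlc39a2 and 3748 ± 710 in siSlc39a2 PE. Averaged over both siRNAs, PE raised the log2 ratio by 3.43 (two-sided exact permutation test within siRNA groups, p = 0.005, adjusted p = 0.01 over 8 ratio tests). The knockdown, averaged over cells with and without PE, raised it by 1.55 (exact p = 0.005, adjusted p = 0.01). Both p-values are the smallest that the 400 regroupings allow. Both genes fell, and Ucp3 fell further.

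Both CPT1 isoforms fell in every comparison. Cpt1a (NCBI gene 25757) encodes the isoform named after liver, which the newborn heart also makes, and Cpt1b (NCBI gene 25756) the isoform of muscle. Cpt1a was at 460, 440 and 446 CPM in siNeg, 357, 317 and 320 in siNeg PE cells, 276, 285 and 281 in siSlc39a2, and 212, 196 and 191 in siSlc39a2 PE. These 4 groups did not overlap, and the siSlc39a2 samples lay below the siNeg PE samples. Cpt1b was at 1299, 1173 and 1157 CPM in siNeg, 740, 603 and 569 in siNeg PE cells, 741, 783 and 702 in siSlc39a2, and 430, 387 and 351 in siSlc39a2 PE. Here the single interventions overlapped, with siNeg above both and siSlc39a2 PE below both.

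PE changed Cpt1a by -0.44 (SE 0.06, adjusted p = 0.000137) and Cpt1b by -0.92 (SE 0.10, adjusted p = 1.99e-05) on the log2 scale in siNeg cells. The knockdown changed them by about the same amount as each other, -0.68 for Cpt1a (adjusted p = 1.68e-06) and -0.70 for Cpt1b (adjusted p = 9.02e-05). In the presence of PE the knockdown values were -0.73 (adjusted p = 7.84e-07) and -0.71 (adjusted p = 7.48e-05). In siSlc39a2 cells the PE values were -0.49 (adjusted p = 3.24e-05) and -0.93 (adjusted p = 1.04e-05). The cells with both interventions kept 44.4% of the siNeg level of Cpt1a and 32.2% of that of Cpt1b.

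The ratio of the isoforms moved with PE. The ratio of Cpt1b to Cpt1a, in FPKM, was 4.32, 4.14 and 4.03 in siNeg and 4.16, 4.22 and 3.81 in siSlc39a2, against 3.17, 2.93 and 2.77 in siNeg PE and 3.09, 3.01 and 2.80 in siSlc39a2 PE. Every untreated sample was above every PE sample, and the siRNA groups overlapped with and without PE. PE changed the log2 ratio by -0.47 (exact permutation p = 0.005, adjusted p = 0.01) and the knockdown by -0.02 (exact p = 0.735). Cpt1b shares part of its reads with other genes in all 12 samples, so the level of this ratio is uncertain, and promoter windows of Cpt1b and Acadl were not used here.

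**Figure D2:**
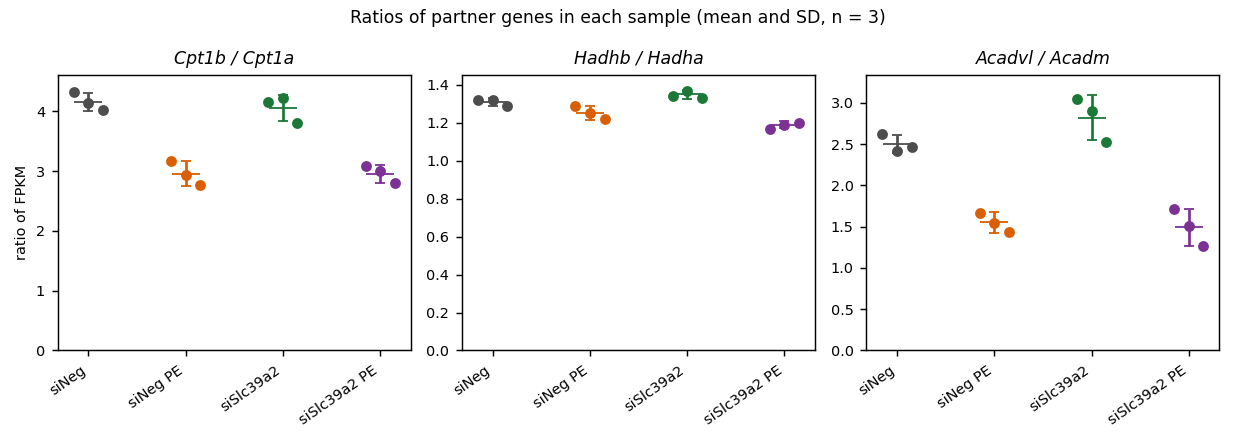
Ratio of FPKM (vertical axes, from 0) between partner genes in each sample of the 4 groups, with the mean and SD (n = 3). The mean of each ratio is lower in both PE groups than in both untreated groups. Hadhb to Hadha moves least, with all samples between 1.17 and 1.37.

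The 3 acyl-CoA dehydrogenases fell together with the knockdown but not with PE. Acadvl (NCBI gene 25363) encodes the very-long-chain enzyme of the inner membrane, Acadl (NCBI gene 25287) the long-chain and Acadm (NCBI gene 24158) the medium-chain enzyme of the matrix. With PE in siNeg cells the log2 fold changes were -0.59 (SE 0.07, adjusted p = 5.34e-05) for Acadvl, -0.26 (SE 0.07, adjusted p = 0.00862) for Acadl and 0.09 (SE 0.09, 95% interval -0.10 to 0.29, adjusted p = 0.409) for Acadm. With the knockdown they were -0.40 (adjusted p = 0.000605), -0.39 (adjusted p = 0.000524) and -0.57 (adjusted p = 0.000266), so all 3 passed the test.

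Acadvl was at 423, 398 and 387 CPM in siNeg, 296, 256 and 248 in siNeg PE cells, 294, 305 and 314 in siSlc39a2, and 198, 181 and 177 in siSlc39a2 PE. The single interventions met at 294 and 296 CPM, and siSlc39a2 PE was clear of both. With both interventions combined, Acadvl kept 46.0% of its siNeg level. The knockdown in the presence of PE changed it by -0.53 (adjusted p = 7.13e-05), and PE in siSlc39a2 cells by -0.72 (adjusted p = 7.01e-06). The Acadvl counts are partly shared with other genes.

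Acadl was close to constant among the siNeg samples, at 509, 506 and 509 CPM. It was at 448, 399 and 424 in siNeg PE cells, 356, 377 and 427 in siSlc39a2, and 334, 316 and 339 in siSlc39a2 PE. The siNeg samples were above all others and the siSlc39a2 PE samples below all others. The knockdown in the presence of PE changed it by -0.36 (adjusted p = 0.000782), and PE in siSlc39a2 cells by -0.23 (adjusted p = 0.0131). Both PE calls of Acadl were lost with limma on the FPKM values (-0.06, adjusted p = 0.517, and -0.11, adjusted p = 0.203, with 1 added), and the call in siSlc39a2 cells was also lost without replicate 2 of siSlc39a2 PE (-0.20, adjusted p = 0.059).

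Acadm fell with the knockdown and did not pass the test with PE. It was at 150, 153 and 145 CPM in siNeg and 164, 154 and 161 in siNeg PE, against 89.4, 97.3 and 115 in siSlc39a2 and 107, 111 and 131 in siSlc39a2 PE. All knockdown samples were below all control samples. The siNeg PE samples were just above the siNeg samples without overlap, which held for 29.3% of all genes. The log2 fold change with the knockdown in the presence of PE was -0.46 (adjusted p = 0.00107), and that with PE in siSlc39a2 cells was 0.21 (95% interval 0.01 to 0.41, adjusted p = 0.0696). That last value passed the threshold without replicate 3 of siSlc39a2 (0.29, adjusted p = 0.0106) and without replicate 1 of siSlc39a2 PE (0.24, adjusted p = 0.0473).

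The ratio of Acadvl to Acadm was lower with PE. It was 2.50 ± 0.111 in siNeg and 2.82 ± 0.271 in siSlc39a2, against 1.55 ± 0.122 in siNeg PE and 1.49 ± 0.228 in siSlc39a2 PE (FPKM, SD, n = 3). PE changed the log2 ratio by -0.81 (exact permutation p = 0.005, adjusted p = 0.01), and the knockdown by 0.06 (exact p = 0.52, adjusted p = 0.594).

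Hadha (NCBI gene 170670) and Hadhb (NCBI gene 171155) encode the α and β subunits of the mitochondrial trifunctional protein, the first with the hydratase and dehydrogenase activities and the second with the thiolase. They lie head to head on rat chromosome 6, and the start sites used for their promoter windows are 301 bases apart. The 193 bases below belong to the promoter windows of both genes and lie before both of these start sites. They were cut at the annotated end of Hadhb, which reaches upstream of the start used for its window. They are shown because the pair changed by similar amounts (RefSeq, GRCr8, chr6:31907558-31907750, written on the plus strand, in the direction of Hadha).
Hadha and Hadhb: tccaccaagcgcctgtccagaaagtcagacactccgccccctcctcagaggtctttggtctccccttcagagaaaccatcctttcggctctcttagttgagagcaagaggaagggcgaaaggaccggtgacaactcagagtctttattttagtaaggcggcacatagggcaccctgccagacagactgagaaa
This stretch holds 0 AGGTCA on either strand. The only match in the pair of windows begins 43 bases after the start used for the Hadhb window, on the other strand to the gene.

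Hadha was at 1557, 1442 and 1443 CPM in siNeg, 1174, 1005 and 995 in siNeg PE cells, 969, 1019 and 1078 in siSlc39a2, and 787, 722 and 709 in siSlc39a2 PE. Hadhb was at 1517, 1416 and 1379 CPM in siNeg, 1129, 932 and 904 in siNeg PE cells, 959, 1040 and 1056 in siSlc39a2, and 684, 639 and 630 in siSlc39a2 PE. For each gene siNeg was above, siSlc39a2 PE was below, and the single interventions overlapped. In siSlc39a2 PE cells Hadha kept 49.9% and Hadhb 45.3% of the siNeg level.

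PE changed Hadha by -0.48 (SE 0.08, adjusted p = 0.000284) and Hadhb by -0.54 (SE 0.08, adjusted p = 0.000252). The knockdown changed them by -0.54 (adjusted p = 8.44e-05) and -0.50 (adjusted p = 0.000313). In the presence of PE the knockdown values were -0.52 (adjusted p = 9.67e-05) and -0.60 (adjusted p = 6.03e-05), and PE in siSlc39a2 cells gave -0.47 (adjusted p = 0.000229) and -0.64 (adjusted p = 4.05e-05). With limma on the FPKM values the PE changes in siNeg cells were -0.31 and -0.35 and the knockdown change of Hadhb was -0.23, all still called. The ratio of Hadhb to Hadha was 1.31 ± 0.0189 in siNeg, 1.25 ± 0.0378 in siNeg PE cells, 1.35 ± 0.025 in siSlc39a2 and 1.19 ± 0.0172 in siSlc39a2 PE. PE changed its log2 by -0.12 (exact permutation p = 0.01, adjusted p = 0.016), the smallest of the 4 PE effects on a ratio, and the knockdown by -0.02 (exact p = 0.47). Hadha shares part of its counts with other genes, which bears on the level of the ratio.

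Pdk4 (NCBI gene 89813) encodes the kinase that inactivates pyruvate dehydrogenase and is induced by fasting and fatty acids. It was at 180, 147 and 139 CPM in siNeg, 193, 133 and 150 in siNeg PE cells, 117, 124 and 155 in siSlc39a2, and 120, 101 and 104 in siSlc39a2 PE. The siNeg, siNeg PE and siSlc39a2 groups overlapped one another, and siSlc39a2 PE lay below both siNeg groups. The log2 fold change was 0.03 with PE (SE 0.14, 95% interval -0.28 to 0.34, adjusted p = 0.884) and -0.24 with the knockdown (95% interval -0.55 to 0.07, adjusted p = 0.19).

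In the presence of PE the knockdown changed Pdk4 by -0.55 (SE 0.15, adjusted p = 0.00611). PE in siSlc39a2 cells gave -0.28 (95% interval -0.59 to 0.03, adjusted p = 0.111). With limma on log2(FPKM + 1) the knockdown in untreated cells and PE in siSlc39a2 cells passed the threshold, at -0.27 (adjusted p = 0.0352) and -0.24 (adjusted p = 0.044). Without replicate 1 of siNeg PE, the highest sample, the PE value in siNeg cells was -0.14 (adjusted p = 0.418).

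The median log2 fold change of the 10 genes was -0.51 with PE in siNeg cells, -0.53 with the knockdown, -0.54 with the knockdown in the presence of PE and -0.48 with PE in siSlc39a2 cells, and that of all genes tested lay between -0.02 and 0.01. The comparisons share samples, and each set of values stands on its own.

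With the further condition of more than 2-fold, 1 of the 10, Ucp3, passed in each comparison, where 2.8%, 5.21%, 5.58% and 4.17% of genes passed downwards. The genes whose 2 groups of samples did not overlap, in the lower direction, were 8, 9, 10 and 8, against 30.5%, 30.6%, 31.7% and 32.6% of all genes. Scaling by total counts alone, without TMM, put the median of all genes at 0.13 in place of -0.02 in the knockdown comparison and left the number of members called at an adjusted p below 0.05 as it was in each comparison. It did bring the knockdown changes of Acadl and Acadvl down to -0.25 and -0.26, which were still called.

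**Figure D3:**
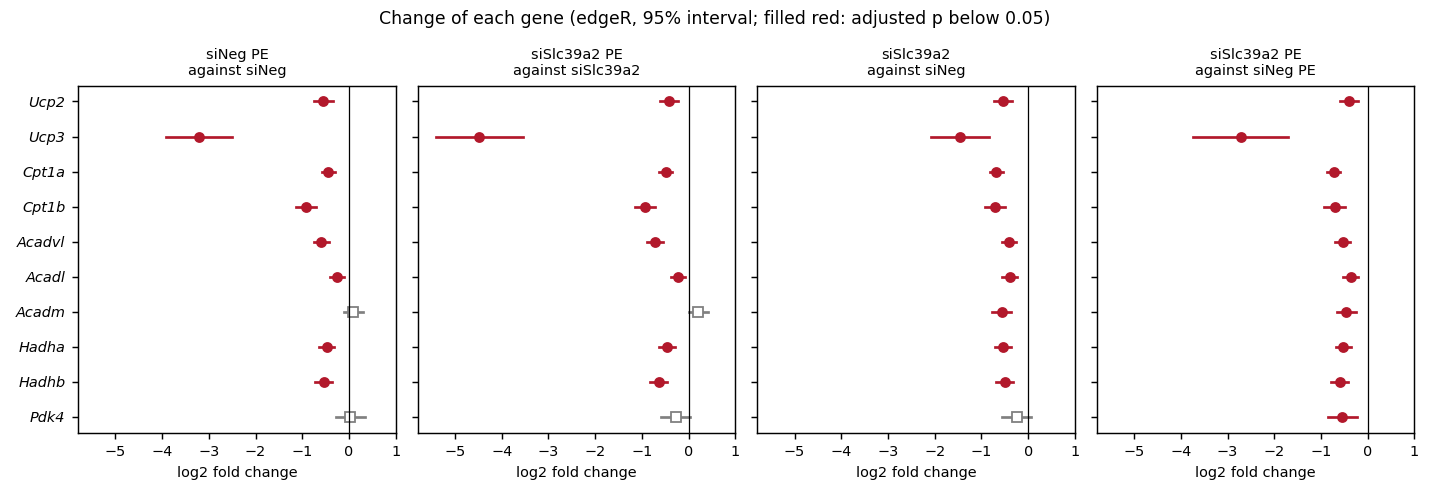
Log2 fold change (horizontal axes) of the 10 genes in 4 comparisons by edgeR, with 95% intervals, filled where the adjusted p is below 0.05. All 10 genes are filled and left of 0 for siSlc39a2 PE against siNeg PE, and Acadm and Pdk4 are open in both PE panels.

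Whether the knockdown altered the response to PE was asked with the interaction, the knockdown effect with PE less that without. No member was called by edgeR (0 of 10, against 1.88% of genes lower and 1.73% higher), 1 had an unadjusted p below 0.05, and DESeq2 called 0 with 1 unadjusted. limma on the FPKM values called 0 with 4 unadjusted. The 1 in edgeR was Ucp3, at -1.26 (95% interval -2.51 to -0.02, adjusted p = 0.304), and with limma on log2(FPKM + 1) that value was 0.42. For the other 9 genes the estimates were between -0.31 (Pdk4, 95% interval -0.75 to 0.13) and 0.13 (Ucp2, 95% interval -0.14 to 0.41). Each of these 9 intervals contained 0, which does not show that the PE responses were alike. On a linear scale, siSlc39a2 PE cells were at 44.4% of siNeg for Cpt1a, where PE alone left 73.9% and the knockdown alone 62.6%.

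Per length, the order of the genes changed. In siNeg the order by FPKM was Ucp2 (1229), Hadhb (709), Hadha (541), Cpt1b (405), Acadl (353), Acadvl (189), Cpt1a (97.3), Acadm (75.9), Pdk4 (49.9) and Ucp3 (10.7), with no overlap of samples between neighbours. In both PE groups Acadl stood above Cpt1b and Acadm above Cpt1a, again without overlap. Acadl was at 311 ± 12.5 FPKM and Cpt1b at 224 ± 28.4 in siNeg PE, and at 244 ± 8.82 and 138 ± 13.3 in siSlc39a2 PE. In siSlc39a2 the samples of Acadl and Cpt1b, of Cpt1a and Acadm, and of Acadm and Pdk4 overlapped, so that their order is not settled. FPKM levels of Ucp2, Cpt1b, Acadvl and Hadha are uncertain for the shared reads named above.

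The rest of the pathway was read from 9 lists without the 10 genes, 80 genes tested in all. With PE in siNeg cells 36 of the 80 were lower and 16 higher, where 25.7% of all genes were lower and 24.0% higher. With the knockdown 40 were lower and 10 higher, against 26.4% and 22.8% of all genes. The knockdown in the presence of PE gave 41 lower and 13 higher, against 28.1% and 29.2%, and PE in siSlc39a2 cells 43 lower and 21 higher, against 29.3% and 30.7%.

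The carnitine shuttle (5 further genes) and mitochondrial beta-oxidation (13 further genes) had called changes in the lower direction alone. In the shuttle 5 genes were lower with PE, 4 with the knockdown and 5 with the knockdown in the presence of PE, and 0 were higher in any comparison. The median log2 fold changes were -0.59, -0.71 and -0.72. Cpt2, the inner membrane partner of CPT1, fell from 342 ± 24.2 CPM in siNeg to 203 ± 23.4 with PE, 253 ± 9.58 with the knockdown and 118 ± 16.8 with both, and its change with PE in siSlc39a2 cells was -1.09 (SE 0.10, adjusted p = 3.22e-06). Of the 13 beta-oxidation genes 10 were lower with PE and 11 with the knockdown, and 0 were higher. Hadh, the short-chain hydroxyacyl-CoA dehydrogenase, fell from 437 ± 35.5 CPM in siNeg to 126 ± 7.96 in siSlc39a2 PE (-1.32 with PE in siSlc39a2 cells, SE 0.10, adjusted p = 6.79e-07). Acad10, an acyl-CoA dehydrogenase relative, fell from 34.5 ± 1.58 to 9.37 ± 0.705 CPM (-1.39 in the same comparison, SE 0.08, adjusted p = 5.89e-08).

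Fatty acid uptake and activation (10 genes) was divided, with 3 higher and 3 lower with PE and 1 higher and 5 lower with the knockdown. Acsl4, an acyl-CoA synthetase that favours arachidonic acid, was at 7.64 ± 1.29 CPM in siNeg and 39.7 ± 12.1 in siSlc39a2 PE, a rise of 1.91 with PE in siSlc39a2 cells (SE 0.20, adjusted p = 7.16e-06). Its relative Acsl3 rose by 1.84 (adjusted p = 4.09e-06), on counts partly shared with other genes. Of the 3 malonyl-CoA genes, 1 was higher and 1 lower with PE, and all 3 were lower with the knockdown, a call that 0 of them kept when counts were scaled by their totals alone. In the peroxisome, where very long chains are shortened, 5 of 10 tested genes were lower and 2 higher with PE, and 5 were lower and 0 higher with the knockdown. With total counts alone 3 were lower with PE, and 3 were lower and 1 higher with the knockdown. Ehhadh, the bifunctional enzyme there, was at 2.36 ± 0.181 CPM in siNeg PE and 0.88 ± 0.237 in siSlc39a2 PE (-1.42, SE 0.21, adjusted p = 9.58e-05).

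**Figure D4:**
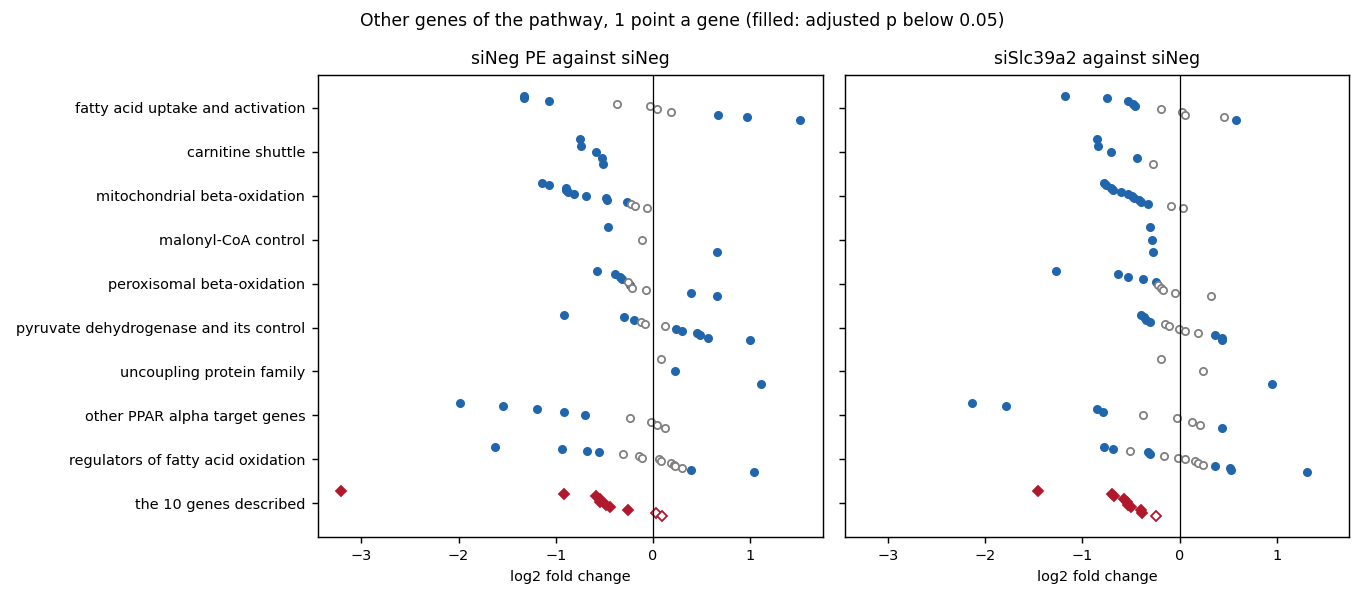
Log2 fold change (horizontal axes) of the other genes of 9 pathway lists, 1 point a gene, and of the 10 genes described (diamonds), for PE and for the knockdown, filled where the adjusted p is below 0.05. The shuttle has 5 filled points left of 0 with PE, and the pyruvate dehydrogenase row has 6 filled points right of 0 and 3 left of it.

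Pyruvate dehydrogenase and its control, the route that Pdk4 closes, had calls in both directions. Of its 12 further genes 6 were higher and 3 lower with PE (24.0% and 25.7% of all genes), and 3 were higher and 4 lower with the knockdown (22.8% and 26.4% of all genes). No difference from the 10 genes was tested. Pdha1, its catalytic α subunit, was at 218 ± 26.9 CPM in siNeg, 435 ± 45.3 in siNeg PE and 646 ± 150 in siSlc39a2 PE, with a change of 1.38 (SE 0.16, adjusted p = 2.28e-05) with PE in siSlc39a2 cells, on counts partly shared with other genes. Pdk2, a kinase of the same family as Pdk4, was at 373 ± 21.1 CPM in siNeg and 130 ± 10.9 in siSlc39a2 PE (-1.12 with PE in siSlc39a2 cells, SE 0.08, adjusted p = 1.91e-07). Pdk2 passed the threshold with PE and Pdk4 did not, and the difference between these kinases was not tested.

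Among the uncoupling relatives, Slc25a27 rose with PE from 0.984 ± 0.27 to 2.12 ± 0.0832 CPM (1.11, SE 0.24, adjusted p = 0.00234). In this family of 3 tested genes 2 were higher and 0 lower with PE. Of the other PPARα targets (9 tested) 5 were lower and 0 higher with PE, and 4 lower and 1 higher with the knockdown. Plin5, a lipid droplet coat protein of oxidative tissue, was at 48.9 ± 7.77 CPM in siNeg and 7.62 ± 2.74 in siSlc39a2 PE (-1.89 with PE in siSlc39a2 cells, SE 0.21, adjusted p = 1.16e-05).

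Of the 15 regulators 2 were higher and 4 lower with PE, and 4 were higher and 4 lower with the knockdown, shares near those of all genes for the knockdown (22.8% higher and 26.4% lower). The 2 higher with PE became 5 with the replicate block, 4 with total counts alone and 1 with limma on the FPKM values. Ppara itself, the receptor, was at 47.8 CPM in siNeg and 44.4 in siNeg PE (-0.11, not called), and at 49.7 in siSlc39a2 and 37.1 in siSlc39a2 PE. It was called lower with PE in siSlc39a2 cells (-0.42, adjusted p = 0.00156) and with the knockdown in the presence of PE (-0.26, adjusted p = 0.0256). Ppargc1a, its coactivator, was between 27.0 and 31.7 CPM on group average and was called in none of the 4 comparisons. Rxrg, an RXR partner of the PPARs, was at 152 ± 17.1 CPM in siNeg and 22.6 ± 1.88 in siSlc39a2 PE (-2.06 with PE in siSlc39a2 cells, adjusted p = 1.16e-07, counts partly shared). Prkaa2, the AMP-activated kinase subunit typical of muscle, went the other way, from 38.5 ± 6.1 CPM in siNeg to 95.6 ± 13 with the knockdown (1.31, SE 0.17, adjusted p = 3.25e-05). Ppara and Ppargc1a were named outside the rule on named genes, after their values were seen.

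The genes most like each member over the 12 samples, were found by Pearson's r of log2 CPM among genes with whole counts. The points share libraries and 4 group means, so that r is high for any pair with the same group pattern. For Ucp3 they were Rnf207 (0.993), Hadh (0.992) and Enpp5 (0.990). Cpt1b was most like Pygm, muscle glycogen phosphorylase (0.998), Car14 (0.997) and Idh3g, a subunit of isocitrate dehydrogenase (0.996). For Cpt1a they were Bcat2, Kmt5c and Sdha, a subunit of succinate dehydrogenase, each at 0.995. Decr1, the auxiliary reductase for unsaturated fatty acids, headed the list for both Acadvl and Hadhb, at 0.997, and Hadhb was next most like Acaa2 (0.995) and Slc25a20, the carnitine carrier (0.994). Acadvl was also close to Ddit4l and Ptov1 (both 0.995), and Hadha to Mgll (0.993), Prkra and Prdx3 (both 0.992). Ucp2, Acadm, Acadl and Pdk4 spanned less than 1 between group means on this scale, and no likeness is given for them.

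Of the 8 members with a promoter window, 3 hold AGGTCA. Besides the 2 matches of Ucp3 and the 1 of Hadhb, Acadvl has 2, beginning 169 and 17 bases before its start. The DR1 repeat read by PPAR with RXR, which is AGGTCA and again AGGTCA in the same direction with 1 base between, was found in none of the 8 and occurs in 0.0538% of all windows on either strand. These windows cover 300 bases around 1 annotated start, and no match says only that the letters are absent from them.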

How the data were processed

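RNA-seq of NRVMs in 4 groups of 3 replicates was analysed from processed values. The authors deposited expected counts per gene (not normalized, 70.0% of genes whole within 1e-06 in every sample, the rest sharing reads with other genes) and FPKM for the same 18483 genes. The submitters' processing notes name HISAT, Bowtie2 and Rnor_6.0. The counting program is not given in the sources used here. The paper names limma, and edgeR was used here because the files hold counts.

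Expected counts were rounded, kept by filterByExpr (13967 genes, 4516 left out), scaled by TMM and fitted over all 12 samples with edgeR 4.0.16 (R 4.3.3), with 8 residual degrees of freedom before moderation. Quasi-likelihood F-tests compared the groups, p-values were adjusted over all genes tested (Benjamini-Hochberg), and 0.05 was the threshold. SE is the absolute log2 fold change over the square root of F, and CPM were taken after TMM. Ratios of FPKM were tested by two-sided exact permutation of samples within strata. Alternatives were DESeq2 1.42.0, RLE, total counts, no filter, each comparison alone, a replicate block, limma 3.58.1 after quantile normalization on log2(FPKM + 1) and log2(FPKM + 0.1), and leaving out each sample. The steps were tested on simulated data.

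The genes, lists, ratios and the rule on named genes were chosen with earlier results of these data known. Named list genes are the 2 with the largest called change beyond 2-fold in each list, and like genes the 3 with the highest r and whole counts. A gene that the rule names is not reported here. Of the listed genes Ucp1, Cyp4a10, Cd163, Adipoq, Lep and Retn were not analysed here. Whether replicate cultures came from separate isolations is not stated, so p-values measure the spread between these cultures. The PE duration follows the labels, and the culture methods of the paper give a longer one. Depth was similar in all samples, and the lowest member counts were those of Ucp3 (9 to 15 in siSlc39a2 PE).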

Additional observations from a re-analysis of the deposited data

Results flagged for a closer look

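Slc25a30, a mitochondrial carrier related to the uncoupling proteins, was the only gene of the 80 tested in the pathway lists whose response to PE differed between the siRNAs by the test of the interaction (log2 -0.49, SE 0.12, edgeR adjusted p = 0.0341). It was at 31.9 ± 2.09 CPM in siNeg and 37.4 ± 3.47 in siNeg PE, and at 61.5 ± 4 in siSlc39a2 and 51.2 ± 0.634 in siSlc39a2 PE, so PE raised it in siNeg cells (0.23) and lowered it in siSlc39a2 cells (-0.26). Its counts are partly shared with other genes. The call was lost without 1 sample in 8 of 12 cases (values from -0.52 to -0.42, adjusted p from 0.0585 to 0.0927), and held with DESeq2, limma and the other scalings (-0.63 to -0.43).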

How the results depend on the processing

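The number of members called was within 1.5 times of the value reported in all 39 other settings and all 36 fits without 1 sample. Of single member changes, 366 of 390 under other settings and 339 of 360 without 1 sample kept their direction and their side of the threshold. Those that lost or gained a call were Acadl, Pdk4 and Acadm, with the values given in the report. The cause was not tested.

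Directions turned only for values that were not called. Pdk4 with PE in siNeg cells lay between -0.14 and 0.15 without 1 sample. For the interaction, Ucp2 was -0.0036 with total counts alone and -0.04 with limma at either added value, and Ucp3 was 0.42 with limma on log2(FPKM + 1). Acadm was -0.02 with total counts. Acadl was -0.10 with total counts, -0.01 without the filter and -0.05 with limma. Hadha was -0.0033 with DESeq2 and with RLE, -0.12 with total counts, -0.02 without the filter and -0.06 with limma. Without 1 sample the interaction ranges were -0.02 to 0.19 for Ucp2, -0.13 to 0.11 for Cpt1b, -0.03 to 0.07 for Acadl, -0.07 to 0.10 for Hadha and -0.18 to 0.00099 for Hadhb. The knockdown effect on the ratio of Cpt1b to Cpt1a ranged from -0.04 to 0.01 without 1 sample, and this check was chosen after seeing the data.

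The replicate numbers in the labels were not taken to pair samples, since same-numbered samples deviated together only in part. For siNeg and siNeg PE their correlations were 0.053 to 0.315, against -0.249 to 0.089 for samples of different numbers. Same-numbered values were -0.011 to 0.025 for siNeg and siSlc39a2. They were 0.004 to 0.32 for siNeg PE and siSlc39a2 PE, and -0.09 to 0.221 for siSlc39a2 and siSlc39a2 PE. With the replicate block the members called were 8, 9, 10 and 9 in the 4 comparisons and 0 for the interaction. The added call was Acadm, higher with PE in siSlc39a2 cells (0.21, adjusted p = 0.0331). Of the counts for the pathway lists, 45 of 702 moved by more than 1.5 times. Ucp3 rested on 9 to 15 counts in siSlc39a2 PE.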

Other observations

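The samples of a group differed in a shared direction over the members. Replicate 1 was the highest of its group for 9 of the 10 genes in siNeg, 10 in siNeg PE and 8 in siSlc39a2 PE, and for 0 in siSlc39a2, where replicate 3 was the highest for 8. The same ranks over all genes are not given here, so no trait of these 10 genes is read from them. Replicate 1 of siNeg PE had the fewest counts of Nppb, the natriuretic peptide gene induced by PE, at 6355 against 8417 and 10069. In siNeg replicate 1 had the most, at 249 against 181 and 204. In siSlc39a2 PE the raw count of replicate 1 lay between the others, at 43528 against 44274 and 37893. That library had the fewest total counts of its group, at 26761034 against 28603854 and 27381451. The order of these raw counts is therefore not read as an order of Nppb levels. In siSlc39a2 replicate 3 had the fewest raw counts of Nppb, at 1430 against 1671 and 1756. It also had the fewest total counts, at 24065539 against 27777350 and 28436993. Scaled for depth, Nppb in this group was at 57.7 CPM with an SD of 1.86, so the samples differed little. Without replicate 1 of siNeg PE the PE change of Ucp3 in siNeg cells was -3.79 and its knockdown change in the presence of PE was -2.14.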
